A study of Mus musculus with 282 samples.

Results

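Progenitors called G2M were compared with progenitors called G1 among single mouse granulocyte-monocyte progenitors (GMPs), which are precursors of neutrophils and monocytes in bone marrow. The members are the cells to which the authors' deposited cell tables give the cell cycle phase G2M or G1. These are 195 of the 238 cells in those tables, of which 67 were G1 and the rest G2M, and the other 43 cells were called S. The series holds 282 samples, each of 1 cell.

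All cells came from bone marrow of male and female mice of 12 to 19 weeks. The mice were homozygous for GFP-p65, in which the NfkB subunit p65 carries a fluorescent tag, and heterozygous for H2BmCherry, a tagged histone that marks nuclei. Cells were cultured for 8 h under a confocal microscope and picked with a micromanipulator, and their polyadenylated RNA was amplified by Smart-Seq2, a method for single cells. One group had TNF in the Cytokine column of the tables and the other had "blank", read here as no cytokine. TNF, an inflammatory cytokine, activates NfkB. The 2 experiments are called here the 1-plate and the 2-plate experiment after the number of plates among their samples. All samples of the 1-plate experiment are labelled Plate2, and the labels do not say whether it had further plates. A stratum is 1 experiment with 1 Cytokine value. Every cell, blank or TNF, had therefore been cultured, imaged and picked in the same way, and carried both tags. The cells were picked by hand, so shares of cells describe the picked cells, and the labels do not say whether the experiments used separate animals.

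A cell in G1 has divided and has not yet copied its DNA again, a cell in S is copying it, and a cell in G2 or M has finished copying and prepares for or carries out division. Many transcripts of the mitotic machinery rise towards division and are removed after it, so RNA alone can place a cell in the cycle. Committed myeloid progenitors are among the cells of bone marrow that divide often, and their exit from the cycle accompanies maturation into granulocytes and monocytes.

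The gene tables use Ensembl mouse identifiers, and 0 of 55450 identifiers could be paired with a name in the reference table used here. Lineage genes, inflammatory genes and markers of other cell types, which are listed by symbol, were therefore not analysed here, and the labelled cell type was not checked against markers. No sequence is shown for the same reason. Genes are described by counts, and at most 2 that were higher and 2 that were lower are given by identifier in a comparison.

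G2M was the most frequent call in each stratum, and the share of G1 cells was close with and without TNF within each experiment. Among 51 TNF cells of the 1-plate experiment 9 were G1 (17.6%, exact Clopper-Pearson 95% interval 8.40% to 30.9%), as were 3 of 16 blank cells (18.8%, 4.05% to 45.6%). G2M held 30 of the 51 TNF cells (58.8%, 44.2% to 72.4%) and 10 of the 16 blank cells (62.5%, 35.4% to 84.8%). The TNF cells of the 2-plate experiment held 41 G1 cells (32.3%, 24.3% to 41.2%), and 14 of 44 blank cells were G1 (31.8%, 18.6% to 47.6%). G2M held 63 of those TNF cells (49.6%, 40.6% to 58.6%) and 25 of the 44 blank cells (56.8%, 41.03% to 71.7%). The intervals of TNF and blank cells overlapped in both experiments, and they cover counting error only. The number of cells was too small to show a difference in phase of the size of these intervals.

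On the 2 plates of the 2-plate experiment the G1 share of TNF cells was 30.5% and 33.8%, and 7 of 24 and 7 of 20 blank cells were G1. The G2M share of TNF cells was 59.3% on Plate1 (45.7% to 71.9%) and 41.2% on Plate2 (29.4% to 53.8%), with 6 of 59 and 17 of 68 cells in S. Among TNF cells the plates thus differed less in G1 cells than in the division of the rest between S and G2M. Blank cells did not share this: 13 of 24 on Plate1 and 12 of 20 on Plate2 were G2M, and 4 and 1 were S. These values carry no test, because cells are not replicates and there were 2 experiments.

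The phase of a cell is a range of scores rather than a type. Each cell has a G1, an S and a G2M score between 0 and 1. The G1 score of G1 cells ran from 0.447 to 0.987, with a median of 0.791, and the G2M score of G2M cells from 0.432 to 0.998, with a median of 0.869. The classes met at their edges: the highest G1 score of a G2M cell was 0.490, above the lowest of a G1 cell (0.447), and the highest G2M score of a G1 cell was 0.400, just under the lowest of a G2M cell (0.432). Most cells lay far from these edges, and the median G1 score of G2M cells was 0. The score of the called phase lay within 0.1 of the next score in 3 G1 cells and 6 G2M cells. The call differed from the top score in 1 G1 and 3 G2M cells, and in 17 of the 43 S cells.

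**Figure D1:**
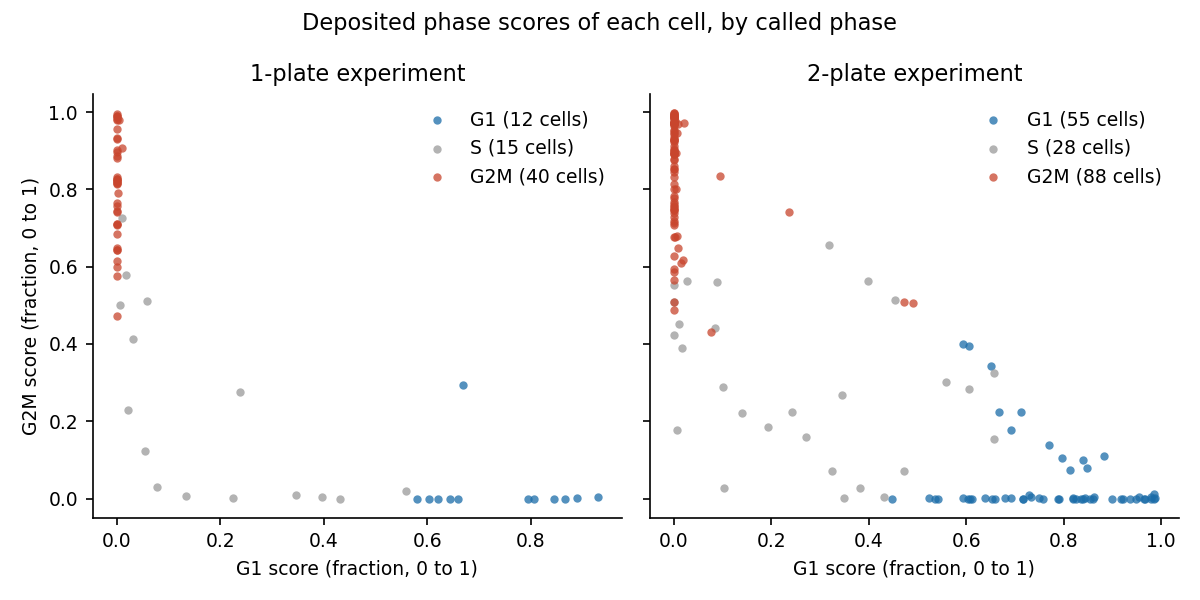
Deposited G1 score (horizontal) and G2M score (vertical) of each cell, both fractions from 0 to 1, for the 1-plate and the 2-plate experiment, coloured by the called phase. G2M cells sit along a G1 score near 0 and G1 cells along a G2M score near 0; S cells lie between them.

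The sources used here do not say how the authors scored the cells. Scoring the deposited counts with the mouse marker pairs supplied with scran gave the same phase in 228 of the 238 cells, and the recomputed and deposited G1 scores had a Pearson correlation of 0.998 across cells. All 10 cells that differed had been called G2M, of which 8 were recomputed as S and 2 as G1. The pairs use 667 genes, all present in the count tables. The same libraries therefore gave both the phase and the expression values, and levels of the 667 marker genes between G2M and G1 cells are a description of how the classes were made. Genes outside the pairs may still belong to the cell cycle, since they could not be sorted by name.

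Counts were summed per stratum and phase, which gave 8 sums of 3 to 63 cells and 3529340 to 113994000 reads. The G1 sum of 1-plate blank cells held 3 cells. Over all 4 strata, 41 of 12638 genes tested were higher in G2M than in G1 (percent called 0.324%) and 3 were lower (0.0237%), at an adjusted p under 0.05 with edgeR's quasi-likelihood test and Benjamini-Hochberg adjustment. Of the 41 genes, 32 belonged to the 619 marker-pair genes tested, and the median log2 change of those 32 was 2.91. This describes the classes and is not evidence of a further difference. With the stratum as a term, the p-values measure how far the difference between phases varied over strata of 2 experiments. Strata of 1 experiment share its cells' origin, and that spread may be technical.

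Outside the marker pairs, 9 of 12019 genes tested were higher in G2M (0.0749%) and 3 were lower (0.025%), again by edgeR's adjusted p. The log2 changes of the 9 genes ran from 1.24 to 4.76, with a median of 2.74, and all 9 were higher in each of the 4 strata, 8 of them by at least 2-fold in each. Of the 3 lower genes, 2 were lower by at least 2-fold in each stratum, with log2 changes of -2.89 and -2.34. The third had a fitted change of -7.07, but with 1 CPM added its log2 differences were -5.04 and -3.55 in the TNF strata and -0.37 and -0.93 in the blank strata. The median over all genes tested was 0.083.

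ENSMUSG00000026605 had the highest rise of the 9 genes. Its level in the summed reads, in CPM (the reads of a gene divided by all gene reads of the sum and brought to a fixed total), was 1.91 in G1 and 144.1 in G2M cells of the 1-plate TNF stratum, and 2.55 and 150.8 in 1-plate blank cells. In the 2-plate experiment it was 5.59 in G1 and 87.3 in G2M TNF cells, and 8.29 and 106.4 in blank cells. G2M sums were thus above G1 sums in all 4 strata with no overlap, and 1-plate and 2-plate values were of the same order. A read was found in 32 of 67 G1 cells (47.8%), 37 of 43 S cells (86.05%) and 96.1% of G2M cells. The fitted log2 change was 4.76 ± 0.53 (SE; edgeR adjusted p = 0.033, 4 strata). It did not pass with clear phase calls only (edgeR adjusted p = 0.0502), cells whose margin over the next score exceeded their phase's median. Nor did it pass with cells restricted by NfkB response class (edgeR adjusted p = 0.0542). That restriction, used below too, kept transient cells, oscillatory cells and non-responsive blank cells. Clear calls left only TNF strata in the fit, here and for the named genes below. The log2 change of this gene was 5.34 there.

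ENSMUSG00000025154 showed the same order. Its summed level was 9.56 CPM in G1 and 128.3 CPM in G2M cells of the 1-plate TNF stratum, and 3.68 and 126.4 CPM in 1-plate blank cells. In 2-plate TNF cells it was 11.5 and 79.95 CPM, and in 2-plate blank cells 17.4 and 105.3 CPM. The G2M sums again lay above every G1 sum. A read was found in 35 of 67 G1 cells (52.2%) and in 96.9% of G2M cells, and the median cell had 0.618 CPM in G1, 33.5 CPM in S and 85.3 CPM in G2M. The log2 change was 3.43 ± 0.43 (SE; edgeR adjusted p = 0.047, 4 strata). Scaled by relative log expression instead, it did not pass (edgeR adjusted p = 0.0504), nor with clear calls (0.0507), by response class (0.0742) or without Plate2 of the 2-plate experiment (0.0651).

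Among the genes lower in G2M, ENSMUSG00000031925 was detected in 42 of 67 G1 cells (62.7%), 23 of 43 S cells (53.5%) and 41 G2M cells (32.03%). Its summed level was 136.1 CPM in G1 and 16.2 CPM in G2M cells of the 1-plate TNF stratum, and 128.9 and 14.6 CPM in 1-plate blank cells. In 2-plate TNF cells it was 13.2 and 2.04 CPM, and in 2-plate blank cells 18.4 and 3.25 CPM. Within each stratum G1 was above G2M, but the G1 sum of 2-plate TNF cells lay below both G2M sums of the 1-plate experiment, and the G1 sum of 2-plate blank cells just above them. Single cells held much of these reads: 99.8% of the 455 G1 reads of 1-plate blank cells came from 1 cell, and 40.9% of those of 1-plate TNF cells. The log2 change was -2.89 ± 0.26 (SE; edgeR adjusted p = 0.028, 4 strata). It did not pass with clear phase calls only (edgeR adjusted p = 0.086), with cells restricted by response class (0.0855), without Plate1 of the 2-plate experiment (0.072) or without the 1-plate experiment (0.091).

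ENSMUSG00000096054 was read in most cells of either phase, 61 of 67 in G1 (91.04%) and 78.1% in G2M. Its summed level was 392 CPM in G1 and 61.4 CPM in G2M cells of the 1-plate TNF stratum, and 255 and 45.6 CPM in 1-plate blank cells. In 2-plate TNF cells it was 271 and 79.004 CPM, and in 2-plate blank cells 87.1 and 18.3 CPM. Every G1 sum lay above every G2M sum, though single cells overlapped widely, from 0 to 4717 CPM in G1 and from 0 to 2582 CPM in G2M, with medians of 34.3 and 11.4 CPM. The highest cell gave 63.9% of the G1 reads of 1-plate blank cells, 47.9% of those of 1-plate TNF cells and 17.5% of those of 2-plate TNF cells. The log2 change was -2.34 ± 0.20 (SE; edgeR adjusted p = 0.028, 4 strata). Its adjusted p by edgeR was 0.084 with sums per plate, 0.071 with S-phase sums, 0.052 with additive terms or with cells of at least 8000 detected genes, and 0.11 with clear calls. It was 0.078 without Plate1 and 0.36 without Plate2 of the 2-plate experiment (edgeR adjusted p).

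The third gene lower in G2M was read in 17.9% of G1 and 4.69% of G2M cells and is left without an identifier, since the rule asked for a read in at least 50% of the cells of the higher phase. In S cells, which did not enter this fit, the 9 genes higher in G2M had a summed level between those of G1 and G2M in 31 of 36 gene and stratum pairs. The 3 genes lower in G2M did so in 4 of 12.

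**Figure D2:**
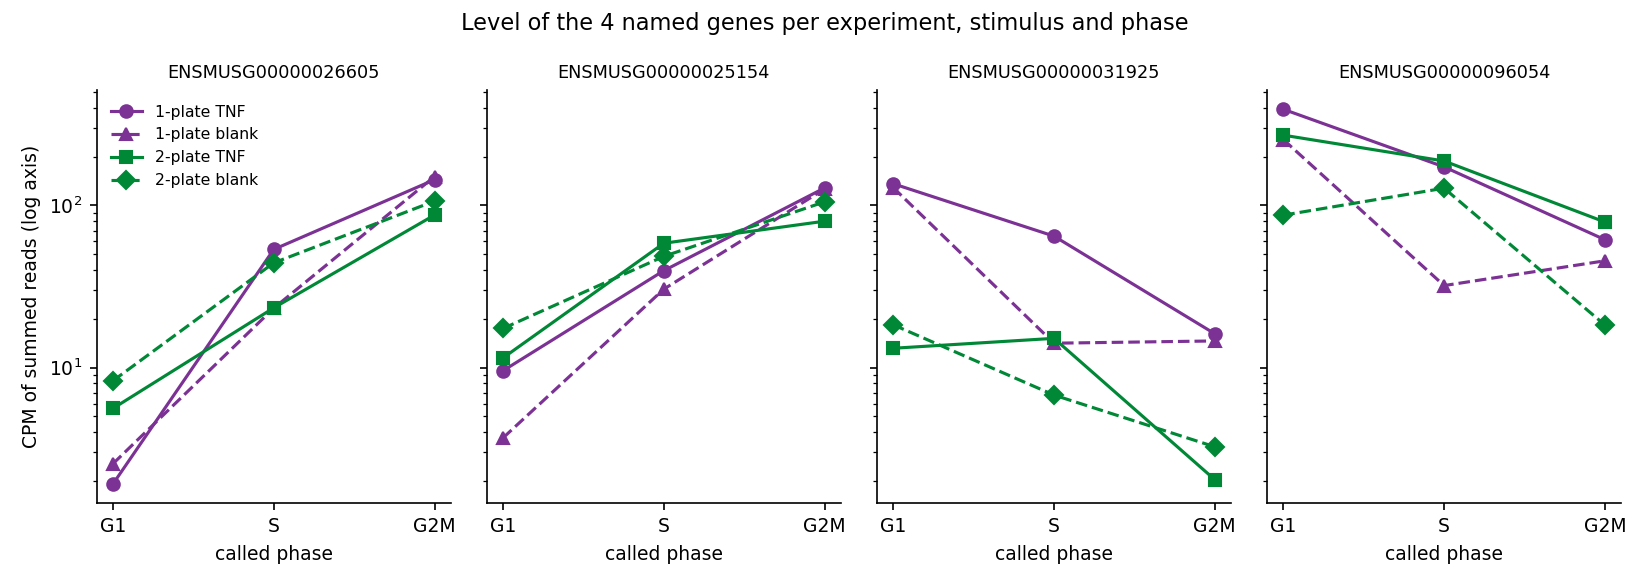
CPM of the summed reads (log axis) of the 4 named genes in G1, S and G2M cells, with 1 line for each experiment and stimulus. The 2 genes on the left climb from 1.91 to 17.4 CPM in G1 to 79.95 to 150.8 CPM in G2M, and the 2 on the right lie lower in G2M than in G1 in each of the 4 strata.

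The calls over all strata depended on which strata were in the fit. Leaving a stratum out also leaves fewer sums and residual degrees of freedom. Without the 1-plate TNF, the 2-plate TNF or the 2-plate blank cells, the number of genes called by edgeR was 0, and 575, 758 and 773 had an unadjusted p under 0.05; DESeq2 was not run with a stratum left out. Without the 1-plate blank cells, whose G1 sum held 3 cells, 0.925% of genes were called (92.2% of them higher in G2M), against 0.348% (93.2%), and 40 genes higher and 10 lower lay outside the pairs, among them all of the 12 genes called with all strata. DESeq2 on all 8 sums called 467 genes, 285 of them higher in G2M, and of its 328 calls outside the pairs 46.04% were higher. Outside the pairs the split between higher and lower genes thus depended on the tool.

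The scaling also bears on the direction. Reads from genes were set against reads from added spike-in RNA (ERCC) in each sum, and scaled in this way the median log2 change over all genes tested was 0.75, against 0.083 with TMM factors. Among the 3 G1 cells of the 1-plate blank stratum, the highest spike-in share was 1.63% of reads, against a median of 0.196%. Single cells reached 23.6% among 2-plate blank G2M cells and 14.6% among 2-plate TNF G1 cells. The part of such cells in the 0.75 was not tested. The tests on the spike-in scale were made against a change of 0 and not against 0.75. On this scale, which was added after the data had been seen, 80 genes were higher and 1 was lower (edgeR), against 41 and 3, and 20 and 1 of these lay outside the pairs. Neither of the 2 named lower genes passed there: their log2 changes were -2.16 and -1.61 (edgeR adjusted p = 0.24 and 0.59). With TMM factors these were -2.89 and -2.34, so both scales put the 2 genes well below the median of all genes.

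The effect of the phase was also fitted separately in TNF and blank cells. In TNF cells alone 0 of 12638 genes passed edgeR's test, and 449 had an unadjusted p under 0.05 (DESeq2 called 1.29%, 20 of them lower in G2M). In blank cells alone 0 passed, and 795 had an unadjusted p under 0.05 (DESeq2 called 243 genes, 89 of them lower). These fits also depended on the strata: without the 1-plate blank cells edgeR called 230 genes in TNF cells and 0.766% of genes in blank cells, and without the 2-plate blank cells 0.878% and 19.4%; the 1 remaining blank stratum was then assumed to vary like the others. The difference between the effect in TNF and in blank cells was tested directly, and 0 genes passed with edgeR, where 191 had an unadjusted p under 0.05 (DESeq2 called 2). For the 12 genes outside the pairs the log2 change in TNF cells minus that in blank cells ran from -0.39 to 1.01, with SEs of 0.31 to 1.04 (edgeR adjusted p = 1 for each).

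Across genes, the per-stratum differences between G2M and G1 were more alike for the marker-pair genes than for the others. Over the 619 pair genes the Pearson correlation between 2 strata was 0.463 to 0.870. Over the 12019 other genes it was 0.242 to 0.314 among the 1-plate TNF, 2-plate TNF and 2-plate blank strata, and 0.045 to 0.099 wherever 1-plate blank cells were involved. The phase calls can be largely reproduced from the pair genes, so the closer likeness of those genes describes how the classes were made. It is not a finding about them. These are correlations across genes of the same sums, which are not independent replicates.

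To describe more genes outside the pairs, the phases were compared in the 2-plate experiment alone, with plate and stimulus as 4 strata, and the genes called there were then read in the 1-plate experiment, whose cells did not enter that fit. Of 11840 genes outside the pairs, 68 were higher (0.574%) and 14 lower in G2M (0.118%) by edgeR's adjusted p, with median log2 changes of 1.31 and -0.85. The balance moved with the method: 82.9% of these calls were higher, against 55.4% of the 697 calls by DESeq2 and 68.97% with the stricter low-count filter. Of 619 pair genes, 99 were higher (16%) and 1 was lower (0.162%). The 4 strata were plates of 1 experiment, so these calls describe that experiment. They depended on both plates: without Plate2, 15 genes outside the pairs were called, and without Plate1 the number was 0, where 588 had an unadjusted p under 0.05.

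In 1-plate TNF cells (9 G1, 30 G2M), 66 of the 68 genes were higher in G2M, against 51.1% of all 11840 genes, and 49 of the 68 by at least 2-fold, against 8.39% of all genes. Their median log2 difference was 1.61, with a range of -0.14 to 5.99, where the median of all genes was 0.020. All 14 genes lower in the 2-plate experiment were lower in these cells too, against 48.5% of all genes, with a median log2 difference of -1.46 and a range of -3.25 to -0.21. The direction found in 1 experiment thus recurred in TNF cells of the other for 80 of 82 genes. In 1-plate blank cells (3 G1, 10 G2M) the same held for 49 of 68 and 11 of 14 genes, against 54.4% and 41.6% of all genes, with medians of 0.64 and -0.63. Those cells had a wider spread over all genes, with 23.96% of them at least 2-fold higher in G2M.

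The levels show how these genes ran through the cycle in cells that were not used to choose them. In 1-plate TNF cells the 68 genes had a median summed level of 33.5 CPM in G1, 87.5 CPM in S and 116.8 CPM in G2M, and the 14 genes 111.2, 60.02 and 46.9 CPM. The median over all 11840 genes was 29.01, 30.01 and 29.05 CPM in the same order. In 1-plate blank cells the 68 genes stood at 56.8, 79.001 and 120.8 CPM and the 14 at 120.8, 107.6 and 76.4 CPM. S cells thus lay between G1 and G2M for both sets in both strata, closer to G2M in TNF cells. The 14 genes were read in nearly every cell, in a median of 100% of G1 and 96.7% of G2M TNF cells, so they differed in level rather than in detection.

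**Figure D3:**
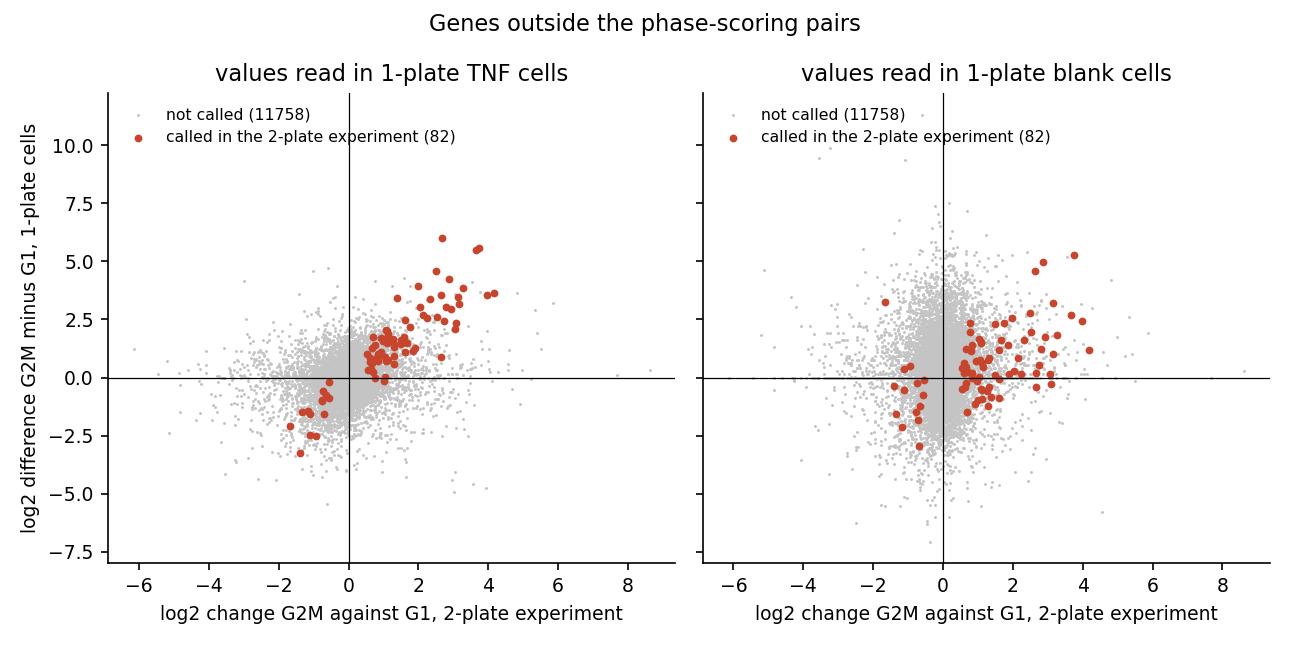
Each point is a gene outside the marker pairs, with its log2 change between G2M and G1 in the 2-plate experiment (horizontal) and its log2 difference, with 1 CPM added, in 1-plate TNF cells (left) or 1-plate blank cells (right). The 82 genes called in the 2-plate experiment are red; 80 of them share the direction in 1-plate TNF cells, and they scatter more widely in blank cells.

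The response to TNF was then compared between the phases. In G2M cells, TNF against blank with the experiment as a term called 11 of 14075 genes higher (0.0782%) and 1 lower (0.0071%) by edgeR's adjusted p. In G1 cells, which were fewer, 0 of 12255 genes passed, 443 had an unadjusted p under 0.05, and the lowest adjusted p was 0.058. DESeq2 called 94 genes higher and 6 lower in G1 cells, and of its 596 calls in G2M cells 441 were higher. Of the 12 genes called in G2M cells, 11 had the same direction in G1 cells, where 60.2% of the 12039 genes tested in both phases did. The median size of their change was 3.72 on the log2 scale in G2M cells, and in G1 cells the median change in that direction was 2.90. The test of the difference between the phases gave an adjusted p of 1 for each of the 12 (edgeR). The fitted response in G2M minus that in G1 ran from -9.86 to 2.96 on the log2 scale. With 2 residual degrees of freedom this test could show little either way. Between G2M and G1 over all strata 0 of the 12 were called by edgeR, with log2 changes of -2.26 to 2.05. A weaker response of G1 cells was therefore not shown, and neither was an equal one.

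ENSMUSG00000022126, a gene higher with TNF in G2M cells, had 101.03 CPM in TNF and 0.353 CPM in blank G2M cells of the 1-plate experiment, and 353 and 1.30 CPM in the 2-plate experiment. In G1 cells it had 144.3 CPM with TNF and 0 CPM without in the 1-plate experiment, and 256 and 15.4 CPM in the 2-plate experiment. TNF sums were above blank sums in both phases and both experiments. The log2 change was 8.13 ± 0.22 in G2M cells (SE; edgeR adjusted p = 0.0052, n = 2 experiments) and 5.64 ± 1.08 in G1 cells (edgeR adjusted p = 0.55). Its blank G2M reads came from 1 of 10 cells in the 1-plate experiment and 3 of 25 cells in the 2-plate experiment. A read was found in 48 of 63 G2M and 32 of 41 G1 TNF cells of the 2-plate experiment, and 99.1% of the G1 blank reads there came from 1 cell. ENSMUSG00000027073 had the highest fitted change in G2M cells, 8.33 ± 0.30 (SE; edgeR adjusted p = 0.0072), but was read in 12 of 30 and 24 of 63 G2M TNF cells. Single cells gave 64.3% and 49.4% of those reads. ENSMUSG00000024680 was lower with TNF in G2M cells (log2 change -4.51 ± 0.16, SE; edgeR adjusted p = 0.0072). Its G1 value went the other way (3.01 ± 3.59, edgeR adjusted p = 0.9988), and single G2M blank cells held 62.6% (1-plate) and 53.4% (2-plate) of the reads of that group. The SEs and p-values of these fits within a phase come from 4 sums each, with 1 residual degree of freedom. They are uncertain, and the SEs can be too small where few cells hold the reads.

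The authors' cell tables also give each cell a class of NfkB response, whose definition is not in the sources used here. Among TNF cells, G1 and G2M cells had close shares of oscillatory and transient responses. Of the 1-plate cells, 4 of 9 G1 cells (44.4%, exact 95% interval 13.7% to 78.8%) and 14 of 30 G2M cells (46.7%, 28.3% to 65.7%) were oscillatory, and the same numbers, 4 and 14, were transient. Of the 2-plate cells, 12 of 41 G1 cells (29.3%, 16.1% to 45.5%) and 22 of 63 G2M cells (34.9%, 23.3% to 47.97%) were oscillatory, and 14 (34.1%) and 25 (39.7%) were transient. Non-responsive TNF cells made up 1 of 9 G1 and 1 of 30 G2M cells of the 1-plate experiment, and 6 of 41 (14.6%, 5.57% to 29.2%) and 7 of 63 (11.1%, 4.59% to 21.6%) of the 2-plate experiment.

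Among oscillatory and transient cells only, 4 of 8 G1 and 14 of 28 G2M cells of the 1-plate experiment were oscillatory, which is the same share, and 46.2% (12 of 26) and 46.8% (22 of 47) in the 2-plate experiment. In S cells it was lower in both experiments, at 2 of 9 (22.2%, 2.81% to 60.01%) and 2 of 14 (14.3%, 1.78% to 42.8%). The intervals of S overlapped those of G1 and G2M, and the shares of cells carry no test. On Plate1 of the 2-plate experiment 7 of 13 G1 and 15 of 28 G2M cells of these 2 classes were oscillatory, and on Plate2 5 of 13 and 7 of 19, so G1 was level with or slightly above G2M on each plate. Over all TNF cells G2M was slightly above G1 instead, with 38.9% of G1 and 42.9% of G2M cells on Plate1, and 5 of 23 and 7 of 28 on Plate2. Without TNF, the oscillatory class held 2 of 14 G1 and 3 of 25 G2M cells of the 2-plate experiment. In the 1-plate experiment 0 of 3 and 0 of 10 were, which allow shares of up to 70.8% and 30.8% by the exact interval.

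**Figure D4:**
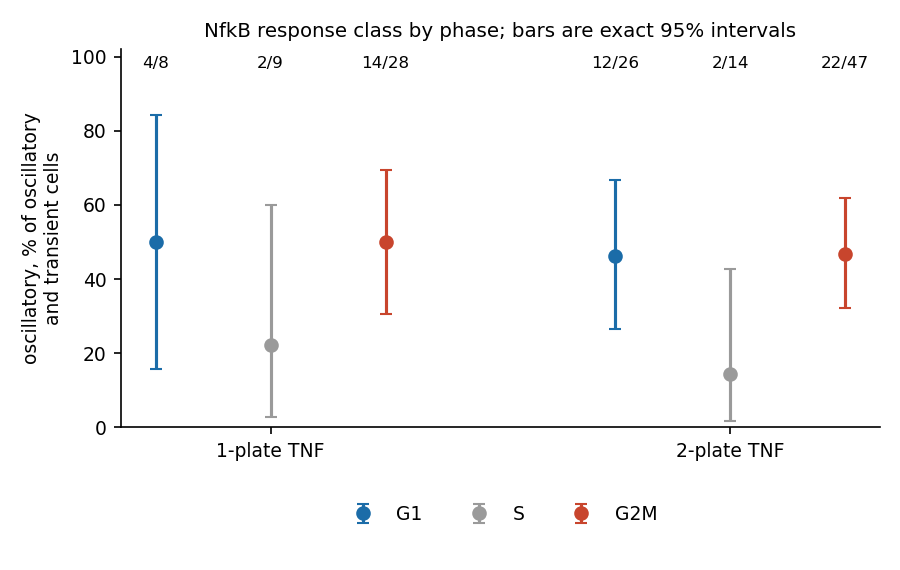
Oscillatory cells as a percentage of oscillatory and transient TNF cells, by phase and experiment, with exact 95% binomial intervals and the counts above. G1 and G2M stand level in each experiment, at 46.2% and 46.8% in the 2-plate one, and S at 22.2% and 14.3%.

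G2M cells yielded more gene reads for each spike-in read than G1 cells. A constant amount of spike-in RNA per well, which was not checked here, would make that ratio a measure of the RNA in a cell. In the 1-plate experiment its median was 755 in G1 and 1064 in G2M TNF cells, and 510 and 702 in blank cells. In the 2-plate experiment it was 74.2 and 85.1 in TNF cells, and 81.5 and 91.4 in blank cells. G2M medians were higher in 4 of 4 strata, by 1.12 to 1.41 times, while single cells of the phases overlapped in each stratum. With 4 strata no two-sided exact test over strata could have passed, and none was made. The 2 experiments differed far more than the phases, so levels of this ratio are compared within an experiment only.

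**Figure D5:**
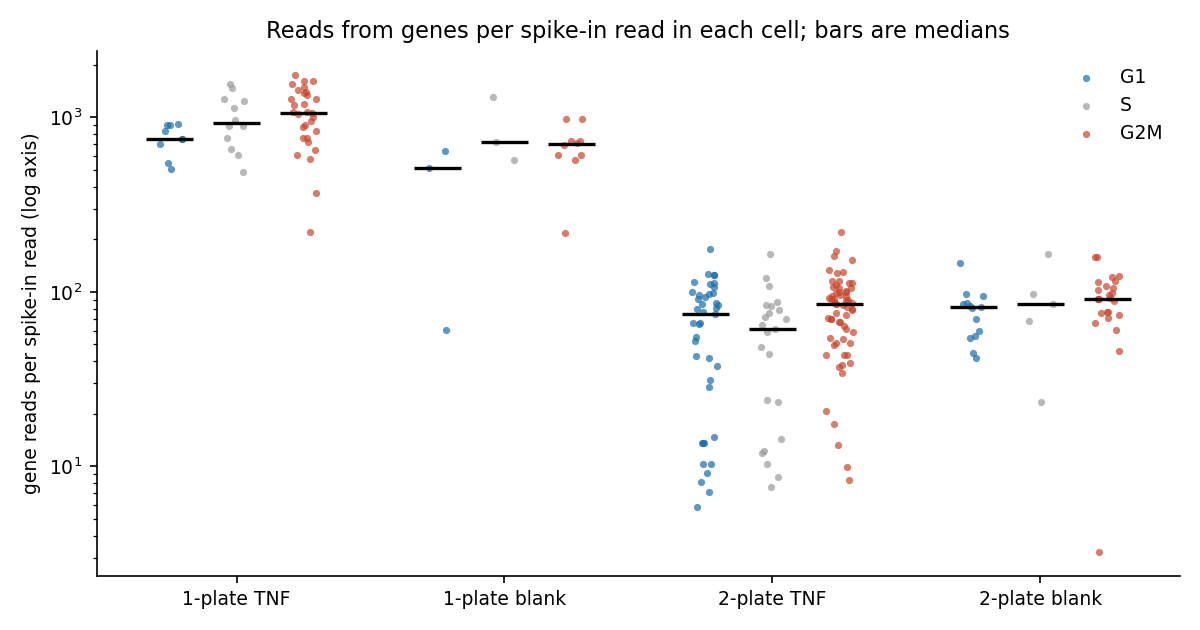
Gene reads per spike-in read (log axis) of each cell by experiment, stimulus and phase, with medians as bars. In each of the 4 strata the G2M median lies above the G1 median, at 85.1 and 91.4 against 74.2 and 81.5 in the 2-plate experiment.

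The ratio in 2-plate TNF cells rested on 1 plate. On Plate1 the medians were 88.4 in G1 and 87.8 in G2M, and on Plate2 41.7 and 68.5. On Plate2, 12 of 30 G1 cells, 8 of 18 S cells and 6 of 40 G2M cells had fewer than 8000 detected genes, out of 13 such G1 and 7 such G2M cells in all. With cells of at least 8000 genes only, the ratio of G2M to G1 medians was 1.03 in 2-plate TNF cells, against 1.15 with all cells, and 1.41, 1.24 and 1.13 in the 1-plate TNF, 1-plate blank and 2-plate blank strata. With the same filter edgeR called 0.979% of genes, 11 of them lower in G2M. In that fit the 1-plate blank stratum also dropped out, because 2 of its 3 G1 cells passed the filter, and leaving out that stratum alone gave 0.925%. The part of poorly detected cells in the gene results was not tested apart from it.

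Depth did not differ between the phases in the same way in both experiments. Median reads per cell were 970400 in G1 and 950618 in G2M TNF cells of the 1-plate experiment, and 1099640 and 865636 in blank cells. In the 2-plate experiment they were 1381760 and 1962740 in TNF cells, and 1305810 and 2006250 in blank cells, so G2M cells were deeper in the 2-plate experiment only. Detected genes had G2M to G1 ratios of the medians from 1.01 to 1.11 over the 4 strata. On Plate2 of the 2-plate experiment, however, TNF cells had a median of 6370 detected genes in G1 and 9940 in G2M, a ratio of 1.56, where Plate1 gave 0.992. The ratios over the 4 strata ran from 1.01 to 1.13 at 1 depth of 529786 reads per cell, for which 30 of the 238 cells were too shallow. With all cells thinned to that depth, 54 genes were higher and 4 lower in G2M (edgeR), and 11 of the 12 genes outside the pairs that had been called were called again.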

How the data were processed

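The members and the comparisons were chosen with earlier results of these data known. Read counts per gene were deposited by the authors as whole numbers. SAMtools, featureCounts and Subread 1.5.0 are named in the submitters' processing notes. Build, annotation and strand setting: not given in the sources used here. Overlapping genes and near-identical copies were therefore not told apart. Phase, response class and phase scores, given as a fraction from 0 to 1, come from the authors' deposited cell tables. Libraries carry no molecular identifiers. The exact intervals of shares of cells cover counting error only, because cells are not replicates. The 357 count columns that match no sample and the 44 samples outside the cell tables were not used, and the 92 spike-in features stayed out of library sizes and tests.

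Reads per cell ranged from 182301 to 3380416, with medians of 899085 (1-plate) and 1718070 (2-plate). No cells had identical columns (count 0). Cells are not replicates: counts were summed per stratum and phase with at least 3 cells in both phases, and tested with edgeR 4.0.16 in R 4.3.3 (default low-count filter, TMM factors, stratum as a term, quasi-likelihood test, Benjamini-Hochberg at 0.05, two-sided, 3 residual degrees of freedom, or 2 with separate stimuli). SEs are absolute log2 changes over the root of F. Fits of TNF against blank within a phase used 4 sums and had 1 residual degree of freedom. CPM scale the reads of a gene to the gene reads of a sum; log2 differences per stratum add 1 CPM to TMM-scaled levels. Phases were recomputed with scran 1.30.0. Fits were also run on simulated counts, drawn independently for each sum, and no results of that are given here. Those counts held no single cells, so they do not cover sums in which few cells hold the reads.

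Named genes are called, lie outside the marker pairs, have 1 direction in 4 strata and a read in at least 50% of the cells of the higher phase, and have the largest absolute log2 changes. The planned rule used symbols and named more genes; it was limited to 2 per direction, since identifiers could not be paired with names, and gene lists and markers by symbol were not analysed here. Leaving out cell cycle genes by symbol was replaced by leaving out scran's marker pairs, a choice made after seeing the data, as were the fit of the 2-plate experiment alone and the comparison of TNF with blank within a phase. For the latter, the named genes are the 2 with the largest rise and the 1 that was lower. Alternatives covered DESeq2 1.42.0, scaling, filters, cells, plates and strata.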

Additional observations from a re-analysis of the deposited data

Results flagged for a closer look

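Values were examined for single cells or strata far from the rest of a group of 4 to 10 values, and 9 of 30 groups had one. The rule gives about 1 in 20 for normally spread values. Levels of genes in single cells are skewed, with many at 0, so this rate does not hold for them. Several of the flagged groups describe the same cells. Over the 4 strata, the ratio of median detected genes between G2M and G1 was 1.11 in 1-plate blank cells, against 1.01 to 1.02 in the other strata. Among the 10 G2M cells of that stratum, the lowest number of detected genes was 7026, where the others had 9025 to 10316. The lowest number of genes with at least 5 reads was 5908 (others 7509 to 8641), and at 1 depth it was 6777 (others 8684 to 9838). The highest spike-in share there was 0.459% of reads, against 0.102% to 0.176% in the others. Taken gene by gene, the highest of these cells had 212 CPM of ENSMUSG00000025154 (others 61.3 to 134.3), 131.8 CPM of ENSMUSG00000031925 (others 0 to 26.8) and 197 CPM of ENSMUSG00000096054 (others 0 to 86.1). The outlying values of different genes and measures need not come from 1 cell. Among the 9 G1 cells of the 1-plate TNF stratum, the highest had 16.7 CPM of ENSMUSG00000026605, against 0 to 6.67 in the others. The causes were not tested.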

How the results depend on the processing

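The number of calls moved with the setting. Values are percentages of genes tested, in the order of all strata, TNF cells, blank cells, the difference between them, and all strata outside the pairs, for which edgeR gave 0.348, 0, 0, 0 and 0.0998. DESeq2 gave 3.70, 1.29, 1.92, 0.0158 and 2.73. No low-count filter gave 0.399, 0.395, 0.332, 0.00395 and 0.138, at least 5 cells per sum 0.925, 1.66, 0.766, 0.0217 and 0.379, and spike-in factors 0.641, 0.111, 0.0712, 0.00791 and 0.175. S-phase sums gave 1.01, 0.387, 0.261, 0 and 0.382, sums per plate 1.57, 0.270, 0.205, 0 and 0.751, and cells with at least 8000 genes 0.979, 1.40, 0.614, 0 and 0.414. Additive terms gave 0.00791 in blank cells, and 1 sum per experiment 0.946 in all and 0.384 outside the pairs. Clear phase calls gave 0.0846 in all, 0.0846 in TNF cells and 0.0242 outside the pairs, with no blank stratum left in the fit. Cells restricted by response class gave 0.229 in all and 0.0517 outside the pairs. Leaving out a stratum or plate gave 0 to 0.925, 0 to 1.66, 0 to 19.4, 0 to 8.602 and 0 to 0.379; the 19.4 and 8.602 came without 2-plate blank cells, where the 3 G1 cells of 1 stratum were assumed to vary like the others. Without Plate1 of the 2-plate experiment 6 genes outside the pairs were called, and without the 1-plate experiment 29; there, separate stimuli could not be fitted for lack of residual degrees of freedom.

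The 82 calls of the 2-plate experiment alone (0.693%) became 5.89% with DESeq2, 0.539% without a filter, 2.26% with the stricter filter (at least 10 CPM in 50% of sums), 0.0245% with clear calls, 0.222% by response class, and 0 to 0.122% without a plate. The share with the same direction in 1-plate TNF cells ran from 82.9% with DESeq2 to 100%, against 97.6%. Of the 4 named genes, ENSMUSG00000026605 passed in 17 of 22 alternatives, ENSMUSG00000025154 in 15, ENSMUSG00000031925 in 14 and ENSMUSG00000096054 in 11. The ratio of median detected genes in 1-plate blank cells was 1.06 with cells of at least 8000 genes. The causes of these changes were not tested, apart from fewer sums or cells where a setting removes them. No paired analysis was possible because replicate numbers are only accession order of single cells; the stratum term already compares the phases within each stratum. The G1 sums of the 1-plate experiment held 3 and 9 cells, which limits their precision.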
